A study of Mus musculus with 24 samples.

Results

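Msx1, Msx2 and Dlx1 to Dlx6 are 8 homeobox genes that code for the muscle segment homeobox (Msx) and Distal-less (Dlx) transcription factors. They were followed in cultured mouse muscle cells with and without the growth factor BMP4. Each gene was read from the probe set, the group of array probes summarised into a single value, whose annotation listed that symbol and no other. All 8 had such a probe set, among 19938 genes measured this way. The study used 24 arrays to ask whether MuSK, a receptor tyrosine kinase of the neuromuscular junction, modulates the response of muscle cells to BMP4, in undifferentiated and in differentiated cells. There were 8 groups of 3 arrays, covering wild-type and MuSK-null lines, as undifferentiated myoblasts or as differentiated myotubes, each untreated or exposed to BMP4.

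The wild-type cells were H-2Kb-tsA58 myoblasts, which carry a conditional immortalising transgene, and the MuSK-/- cells were also immortalised. A single line is described per genotype, so the genotype and the line cannot be told apart. Myoblasts were grown on gelatin at 33 °C in 20% fetal bovine serum with chicken embryo extract and interferon-γ. Confluent cultures became myotubes over 3 days at 37 °C in 5% horse serum, without interferon-γ, so a stage difference also carries the change of serum, cytokine and temperature. BMP4 was given at 25 ng/ml for 8 hours to both stages. Treated myoblasts were first deprived of serum for 4 hours, and treated myotubes were not. Whether untreated myoblasts were deprived too is not stated, so in myoblasts BMP4 and serum deprivation cannot be told apart. The labels call the arrays of a group biological replicates without saying that they came from separate cultures, so the spread that p-values rest on may be technical.

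Msx proteins are mostly transcriptional repressors that keep progenitor cells undifferentiated, and Msx1 is known for holding back the myogenic programme in limb and facial progenitors. Dlx proteins mostly activate transcription, and act in the branchial arches, the skeleton and the forebrain. Both families bind short AT-rich sites with a TAATT core, often antagonise each other on shared sites, and are classical targets of BMP signalling, in which activated receptors phosphorylate Smad proteins that enter the nucleus. Dlx genes lie in linked pairs. In the RefSeq gene order Dlx1 neighboured Dlx2, Dlx3 neighboured Dlx4 and Dlx5 neighboured Dlx6, with no other protein-coding gene between them, whereas Msx1 lay between Cytl1 and Stx18 and Msx2 between Gm38564 and Drd1.

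The sequences before the start sites of Msx2, Msx1 and Dlx2 are shown, because Dlx2 and Msx2 had the largest BMP4 rises of the 8 genes in wild-type myoblasts and Msx1 is the close relative of Msx2 that rose much less. RefSeq promoter windows on GRCm38.p6 were matched for 4 of the 8 genes (Msx1, Msx2, Dlx1 and Dlx2). The 250 bases before each start site, 5′ to 3′ on the strand of the gene, are in lower case, with any match to the searched motifs in capitals. The windows are chr13:53472781-53473030 on the minus strand for Msx2, chr5:37824586-37824835 on the minus strand for Msx1 and chr2:71546755-71547004 on the minus strand for Dlx2. The Dlx1 window lies within the span that RefSeq gives for Dlx1, and is described by its motifs only.
Msx2: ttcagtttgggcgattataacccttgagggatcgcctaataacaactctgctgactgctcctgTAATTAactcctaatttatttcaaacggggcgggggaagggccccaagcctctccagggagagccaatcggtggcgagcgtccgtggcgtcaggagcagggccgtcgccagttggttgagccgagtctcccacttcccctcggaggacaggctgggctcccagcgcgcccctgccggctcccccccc
Msx1: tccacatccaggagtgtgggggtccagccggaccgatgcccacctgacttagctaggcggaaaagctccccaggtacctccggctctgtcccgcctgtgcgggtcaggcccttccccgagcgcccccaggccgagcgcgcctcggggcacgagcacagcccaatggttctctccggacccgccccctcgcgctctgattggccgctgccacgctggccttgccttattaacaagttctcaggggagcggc
Dlx2: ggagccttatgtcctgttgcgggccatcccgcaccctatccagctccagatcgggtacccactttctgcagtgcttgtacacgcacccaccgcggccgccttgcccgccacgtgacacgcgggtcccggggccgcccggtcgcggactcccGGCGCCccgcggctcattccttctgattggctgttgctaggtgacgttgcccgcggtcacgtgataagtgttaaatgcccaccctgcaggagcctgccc
The motifs, searched on both strands, were GGCGCC and CAGACA, the core letters of Smad-binding elements, and TAATTG and TAATTA, the letters bound by many homeodomains. GGCGCC and TAATTA read the same on both strands. The Msx2 window held a TAATTA that began 187 bases before the start site, a motif found in 4.84% of 32851 promoters of the same length. The Dlx2 window held a GGCGCC that began 99 bases before its start site, against 9.59% of promoters. CAGACA, found in 17.1% of promoters, and TAATTG, found in 7.17%, were in none of the 4 windows, and the Dlx1 and Msx1 windows held no match. The G and C content was 61.6% for Msx2, 66.4% for Dlx2 and 68.0% for Dlx1 and Msx1, above the median promoter at 52.4%. A match is a description of letters and not a bound site.

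The arrays had similar overall levels, with array medians of 7.38 to 7.50 on the log2 scale and a median within-group SD of 0.11. Musk itself read 11.50 to 11.63 in untreated wild-type myoblasts and 10.69 to 10.94 in MuSK-null ones. In untreated myotubes the Musk readings were 12.69 to 12.76 and 11.17 to 11.24. Musk was therefore lower in the MuSK-null lines, by 0.72 and 1.51 log2 units at the 2 stages, but still bright, and where the probe set lies relative to the deleted part is not given. Myogenic markers were bright in every group, with 6 of them averaging between 10.77 and 12.66 per array. The 6 smooth muscle markers averaged 9.70 to 10.37, and averages over different probe sets do not settle identity. The 6 myotube markers averaged 8.71 to 8.91 in untreated MuSK-null myoblasts and 11.45 to 11.57 in wild-type ones, so the wild-type myoblasts already carried a high level of differentiation genes. As a reference for dim signals, 1027 olfactory receptor genes had a median of 4.98 and a 95th percentile of 6.64. Dlx5 before treatment (5.93 to 6.67), Dlx6 throughout (6.43 to 7.25) and Msx2 in wild-type myotubes (6.69 to 7.13) read near that percentile. In such bulk samples, fewer expressing cells and less RNA per cell cannot be told apart.

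**Figure D1:**
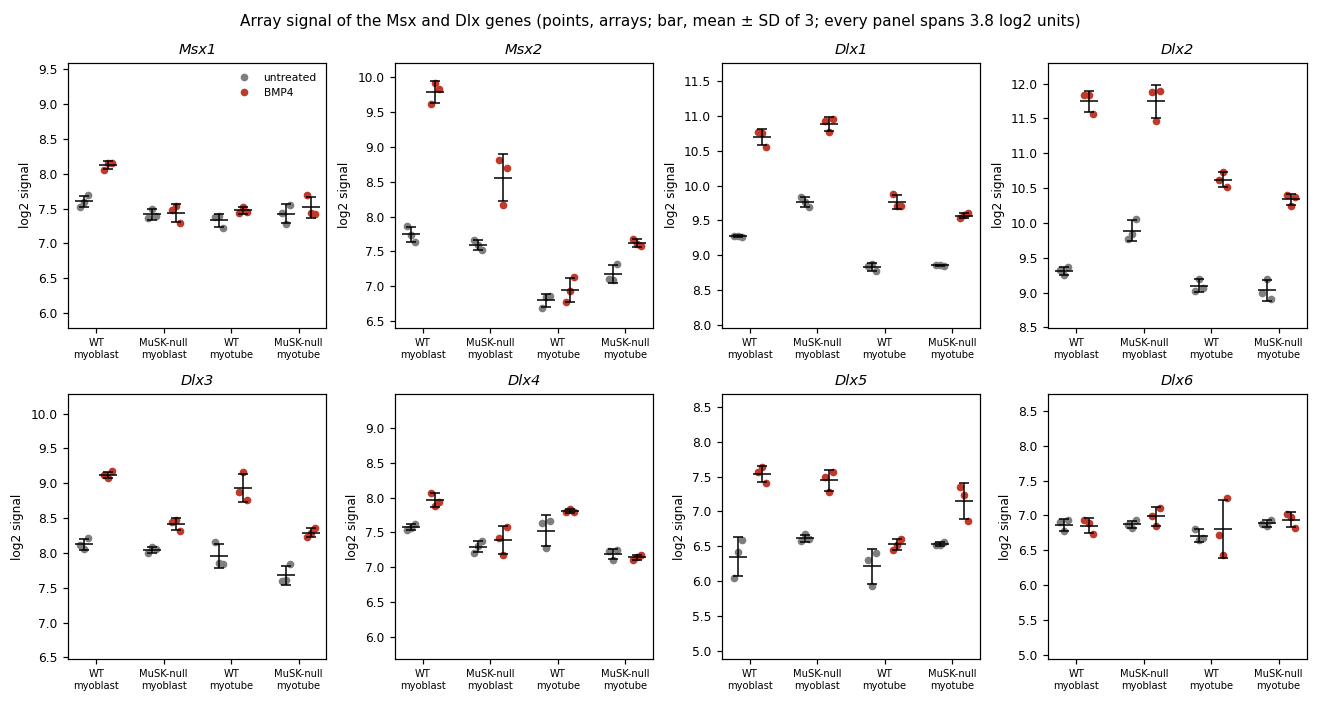
Each panel shows the log2 array signal of a gene in the 8 groups, with 3 arrays per group as points and the mean ± SD as bars, grey for untreated cells and red for BMP4. Msx2 rose most in wild-type myoblasts (9.62 to 9.92 after BMP4) and stayed at 6.78 to 7.13 in treated wild-type myotubes, while Dlx2 was above its untreated level in all 4 settings.

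In wild-type myoblasts BMP4 raised 7 of the 8 genes and left Dlx6 without a call. A gene was called where limma, a moderated linear model fitted over all genes and arrays, gave a Benjamini-Hochberg adjusted p under 0.05. Of all genes, 11.0% were called in this comparison in either direction. The median change was 1.09 log2 units over the 8 genes and 0.00 over all genes.

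Dlx2, known from branchial arch and forebrain development, rose most. Its log2 signal was 9.33, 9.25 and 9.36 in untreated wild-type myoblasts and 11.84, 11.83 and 11.57 after BMP4. All treated arrays were more than 2 units above all untreated ones. The change was 2.43 ± 0.11 (SE, n = 3 against 3), 5.38-fold, with an adjusted p of 2.07e-13 in limma, and ranked 5 among the rises of 19938 genes. Its neighbour Dlx1 read 9.28, 9.28 and 9.26 untreated and 10.77, 10.76 and 10.56 treated. Dlx1 rose by 1.43 ± 0.07 (2.69-fold, limma adjusted p = 5.79e-13), rank 31.

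Msx2, a repressor with roles in skull, tooth and hair formation, read 7.86, 7.73 and 7.64 in untreated and 9.62, 9.92 and 9.83 in treated wild-type myoblasts. The treated and untreated arrays did not overlap. The rise of 2.05 ± 0.12 (SE) log2 units was 4.13-fold (limma adjusted p = 3.62e-11) and ranked 10. Msx1, its close relative, moved much less, from 7.53, 7.59 and 7.69 to 8.06, 8.16 and 8.15. That change of 0.52 ± 0.08 (1.43-fold, limma adjusted p = 8.37e-05) still separated the 2 sets of arrays. A separate probe set for Msx3, a further Msx gene and mainly a neural tube factor, had no call in any comparison, and all its readings lay between 6.92 and 7.51.

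Dlx5 and Dlx3, both activators of osteoblast genes, also rose. Dlx5 went from 6.05, 6.42 and 6.59 to 7.57, 7.64 and 7.41, a change of 1.19 ± 0.13 (limma adjusted p = 5.52e-07). Since the untreated readings were near the dim reference, this fold of 2.28 may understate the true ratio. Dlx3 went from 8.12, 8.05 and 8.21 to 9.12, 9.08 and 9.17, a change of 1.00 ± 0.09 (limma adjusted p = 4.19e-08). Dlx4, the neighbour of Dlx3, rose by 0.39 ± 0.09 (limma adjusted p = 0.00641), from 7.54 to 7.62 before to 7.88 to 8.07 after BMP4. Dlx6, the neighbour of Dlx5, read 6.77 to 6.93 untreated and 6.73 to 6.94 treated, with a change of -0.01 (95% CI -0.28 to 0.25).

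MuSK-null myoblasts responded with 5 of the 8 genes called, all higher, where 8.42% of all genes were called. The median change was 0.60 over the 8 genes. Dlx2 read 9.77, 9.84 and 10.06 untreated and 11.88, 11.47 and 11.89 treated, with no overlap, a rise of 1.86 ± 0.11 (3.62-fold, limma adjusted p = 2.79e-11) that ranked 7. Dlx1 rose from 9.84, 9.77 and 9.69 to 10.93, 10.77 and 10.95, by 1.12 ± 0.07 (limma adjusted p = 5.24e-11). The array with the lowest treated reading was the same for both genes.

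Msx2 in MuSK-null myoblasts read 7.67, 7.59 and 7.52 untreated and 8.81, 8.17 and 8.70 treated. Its rise of 0.97 ± 0.12 (1.96-fold, limma adjusted p = 5.07e-06) ranked 64, and the treated readings spread more (SD 0.34) than any other group of Msx2 arrays. Dlx5 rose from 6.57, 6.67 and 6.60 to 7.49, 7.28 and 7.57, by 0.83 ± 0.13 (limma adjusted p = 9.27e-05). Dlx3 changed least among the called genes, from 8.00 to 8.09 to between 8.32 and 8.48, by 0.37 ± 0.09 (limma adjusted p = 0.0126). Without the first untreated MuSK-null array the adjusted p of Dlx3 was 0.0593, and without the second treated one it was 0.0578. Msx1 (0.02 ± 0.08), Dlx4 (0.10 ± 0.09) and Dlx6 (0.11 ± 0.13) were not called.

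In wild-type myotubes 3 of the 8 genes were called, all higher, against 8.77% of all genes, and the median change over the 8 was 0.29. These were Dlx2, Dlx3 and Dlx1. Dlx2 read 9.02, 9.20 and 9.07 untreated and 10.62, 10.73 and 10.51 treated, a rise of 1.53 ± 0.11 (2.88-fold, limma adjusted p = 9.16e-10), rank 15. Dlx3 read 8.15, 7.86 and 7.84 untreated and 8.88, 9.16 and 8.76 treated, a rise of 0.98 ± 0.09 (1.97-fold, limma adjusted p = 1.11e-07), rank 59. Dlx1 went from 8.85, 8.88 and 8.77 to 9.88, 9.71 and 9.71, by 0.93 ± 0.07 (limma adjusted p = 1.49e-09). In each of these genes the treated arrays lay above the untreated ones.

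Msx2, among the strongest rises of wild-type myoblasts, read 6.69, 6.85 and 6.86 in untreated and 6.78, 6.93 and 7.13 in treated wild-type myotubes. These ranges overlapped, and the change of 0.15 ± 0.12 was not called (95% CI -0.11 to 0.41, limma adjusted p = 0.584). The Msx2 readings lay near the dim reference, so a change may be hidden. Dlx5 changed by 0.32 ± 0.13 (limma adjusted p = 0.174), with treated readings of 6.45, 6.52 and 6.61 that lay below the dim reference percentile of 6.64. Dlx4 changed by 0.27 ± 0.09, with an adjusted p of 0.078 that became 0.0414 without the third untreated array and 0.047 with a replicate block. Msx1 (0.15 ± 0.08) and Dlx6 (0.09 ± 0.13) were not called.

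In MuSK-null myotubes BMP4 raised 5 of the 8 genes, against 11.3% of all genes called, with a median change of 0.53 over the 8. Dlx2 read 9.00, 9.20 and 8.90 untreated and 10.40, 10.24 and 10.37 treated, a rise of 1.31 ± 0.11 (2.48-fold, limma adjusted p = 7.93e-09), rank 36. Dlx1 went from 8.86, 8.86 and 8.85 to 9.53, 9.58 and 9.60, by 0.71 ± 0.07 (limma adjusted p = 6.39e-08). Dlx3 went from 7.59, 7.61 and 7.84 to 8.23, 8.28 and 8.36, by 0.61 ± 0.09 (limma adjusted p = 5.45e-05). All 3 kept their treated arrays apart from the untreated ones.

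Dlx5 in MuSK-null myotubes rose from 6.52, 6.52 and 6.56 to 7.35, 7.24 and 6.86, by 0.62 ± 0.13 (limma adjusted p = 0.00208). Msx2 went from 7.11, 7.09 and 7.32 to 7.68, 7.60 and 7.58, by 0.44 ± 0.12 (1.36-fold, limma adjusted p = 0.0192). The Msx2 arrays did not overlap, yet leaving out the first or second untreated array, or the first or second treated one, ended the call, with adjusted p-values of 0.0523 to 0.0819. Msx1 (0.09 ± 0.08), Dlx4 (-0.05 ± 0.09) and Dlx6 (0.06 ± 0.13) were not called.

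**Figure D2:**
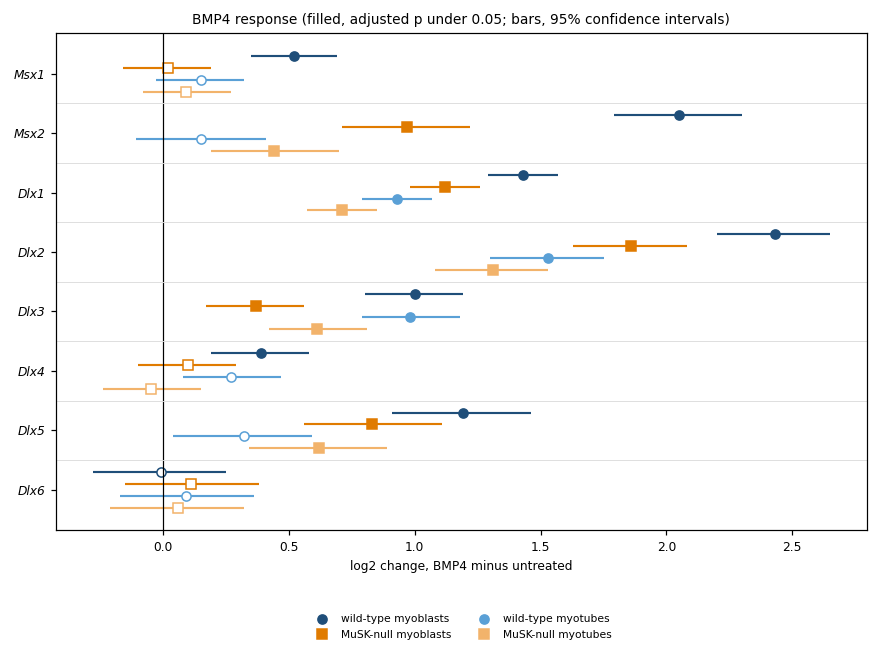
Log2 change of each gene with BMP4 in the 4 cell settings, as the limma estimate with its 95% confidence interval; filled symbols have an adjusted p under 0.05. Dlx2 lay furthest to the right in every setting (1.31 to 2.43), and Msx2 spread from 0.15 in wild-type myotubes to 2.05 in wild-type myoblasts.

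The difference between the genotypes' myoblast responses was tested directly as an interaction. It was called for 4 of the 8 genes, Msx2, Dlx3, Dlx2 and Msx1, all with a smaller response in MuSK-null myoblasts, against 2.39% of all genes. The difference for Msx2 was -1.08 ± 0.17 (95% CI -1.44 to -0.72, limma adjusted p = 0.00064), for Dlx3 -0.63 ± 0.13 (-0.91 to -0.36, adjusted p = 0.00771) and for Msx1 -0.50 ± 0.12 (-0.75 to -0.26, adjusted p = 0.0184). Dlx2 differed by -0.57 ± 0.15 (-0.89 to -0.26, adjusted p = 0.0474), with a higher untreated level in MuSK-null myoblasts and overlapping treated levels of 11.47 to 11.89 and 11.57 to 11.84. Dlx1 had a difference of -0.31 ± 0.10 that was not called (adjusted p = 0.116), but was without the third treated wild-type array (-0.37, adjusted p = 0.0361). The differences of Dlx4 (-0.29 ± 0.13), Dlx5 (-0.35 ± 0.19) and Dlx6 (0.13 ± 0.18) were not called either, and the intervals of Dlx5 and Dlx6 reached -0.74 and 0.50.

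The treated levels themselves show where these differences sat. After BMP4, Msx1 read 7.29 to 7.54 in MuSK-null and 8.06 to 8.16 in wild-type myoblasts, and Dlx3 read 8.32 to 8.48 and 9.08 to 9.17. Msx2 read 8.17 to 8.81 against 9.62 to 9.92. Dlx4, whose response difference was not called, read 7.18 to 7.58 against 7.88 to 8.07. None of these ranges overlapped, and MuSK-null cells were the lower in each. Dlx1 was the other way round, at 10.77 to 10.95 against 10.56 to 10.77, and Dlx5 overlapped (7.28 to 7.57 and 7.41 to 7.64). Treated levels were not tested between genotypes, and the share of all genes with non-overlapping ranges is not given here. In untreated myoblasts 31.3% of all genes were called between genotypes, so these ranges describe levels and are no result about the 8 genes as a set.

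A set of 4 myoblast arrays, the second array of each MuSK-null group, the second of untreated wild-type cells and the third of treated wild-type cells, deviated together from their group means (correlations of 0.42 to 0.54, against 0.33 at most for other pairs of arrays from different groups). They included the lowest treated readings of Msx2 and Dlx2 in MuSK-null myoblasts (8.17 and 11.47) and of Dlx1 and Dlx2 in wild-type myoblasts (10.56 and 11.57). Without these 4 arrays, 1 of the 8 genes was still called for the genotype difference, Msx2 at -0.86 (limma adjusted p = 0.0125). Dlx3 was then -0.58 (adjusted p = 0.119), Dlx2 -0.52 (0.113) and Msx1 -0.50 (0.118), so the sizes moved little while the arrays compared fell to 2 per group. With the same 4 arrays kept and fitted as a block, 5 genes were called, the 4 of the main analysis and Dlx1 (-0.31, adjusted p = 0.0439). Without them the Dlx3 response of MuSK-null myoblasts also lost its call (0.35, adjusted p = 0.0955). Among single arrays, 8 of 12 ended the Dlx2 call when left out (adjusted p over all 12 of 0.0223 to 0.144), and the others were the third treated wild-type, the first untreated MuSK-null and the first and the third treated MuSK-null arrays. For Msx1 the call ended without the first untreated or second treated wild-type array, or without the second untreated or the third treated MuSK-null array (0.0138 to 0.0691 over all 12).

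In myotubes no genotype difference of responses was called for any of the 8 genes by limma, against 3.21% of all genes, although 3 had an unadjusted p under 0.05. The largest in size was Dlx3 at -0.37 ± 0.13 (95% CI -0.65 to -0.09, adjusted p = 0.166). Msx2 had 0.29 ± 0.17 (-0.07 to 0.65), of opposite sign to its myoblast difference, and Dlx5 0.30 ± 0.19 (-0.09 to 0.69). The intervals leave room for differences of more than 0.6 log2 units in these 3 genes, so equal responses were not shown. After BMP4, MuSK-null myotubes had more Msx2 (7.58 to 7.68 against 6.78 to 7.13) and Dlx5 (6.86 to 7.35 against 6.45 to 6.61). They had less Dlx4 (7.11 to 7.17 against 7.79 to 7.84) and Dlx3 (8.23 to 8.36 against 8.76 to 9.16). Dlx2 (10.24 to 10.40 against 10.51 to 10.73) and Dlx1 (9.53 to 9.60 against 9.71 to 9.88) were also lower, while Msx1 and Dlx6 overlapped. These treated levels were compared by their ranges only, and the share of all genes with non-overlapping ranges is not given here. In untreated myotubes 37.4% of all genes were called between genotypes.

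The response of wild-type myotubes was smaller than that of wild-type myoblasts for 4 of the 8 genes, against 3.42% of all genes called. The difference was -1.90 ± 0.17 for Msx2 (95% CI -2.26 to -1.54, limma adjusted p = 5.30e-07) and -0.90 ± 0.15 for Dlx2 (adjusted p = 0.000851). It was -0.87 ± 0.19 for Dlx5 (adjusted p = 0.00665) and -0.50 ± 0.10 for Dlx1 (adjusted p = 0.00284). Dlx3 was unlike these, with a difference of -0.02 ± 0.13 (-0.29 to 0.26), and Msx1 had -0.37 ± 0.12 (adjusted p = 0.0985). Serum was withdrawn before BMP4 in myoblasts alone, and its part in these differences was not tested. The Msx2 and Dlx5 readings of wild-type myotubes lay near the dim reference, so their responses there may be understated.

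In MuSK-null cells the stage difference of responses was called for 2 of the 8 genes, Dlx1 at -0.41 ± 0.10 (limma adjusted p = 0.00914) and Dlx2 at -0.55 ± 0.15 (adjusted p = 0.0318), against 6.16% of all genes. The Dlx2 call ended when any of 7 of the 12 arrays was left out (0.00286 to 0.10 over all 12). Those 7 were the first and second untreated arrays of each stage, the first and the third treated myoblast arrays and the second treated myotube array. Msx2 had -0.53 ± 0.17 (adjusted p = 0.0831), which became -0.72 (adjusted p = 0.00183) without the treated myoblast array that read 8.17.

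The genotype difference in myotubes minus that in myoblasts, a three-way term, was called for Msx2 alone of the 8 genes, against 2.50% of all genes. It was 1.37 ± 0.25 (95% CI 0.86 to 1.88, limma adjusted p = 0.00203), and 1.15 (adjusted p = 0.00832) without the 4 arrays that deviated together. For Msx2, therefore, the MuSK-null response was smaller than the wild-type one in myoblasts, and this difference did not carry over to myotubes. The wild-type myotube readings of Msx2 were near the dim reference, so the response entering this term may be understated. Dlx5 had 0.65 ± 0.26 (adjusted p = 0.262) and Msx1 0.45 ± 0.17 (adjusted p = 0.208), which were not called.

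**Figure D3:**
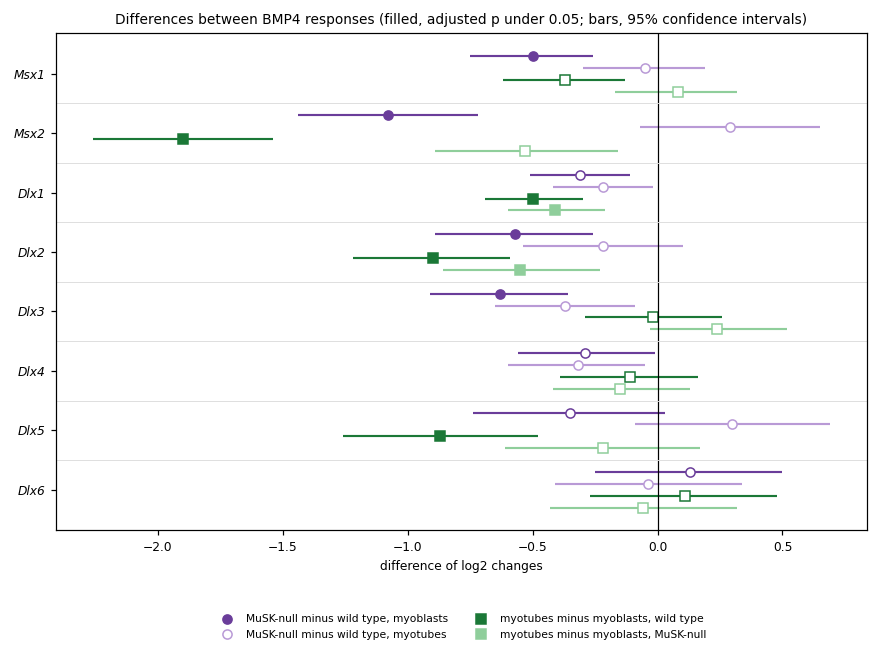
Differences between BMP4 responses for each gene, by genotype within a stage (circles) and by stage within a genotype (squares), as limma estimates with 95% confidence intervals; filled symbols have an adjusted p under 0.05. Msx2 differed most, by -1.08 between genotypes in myoblasts and by -1.90 between stages in wild-type cells, and no circle for myotubes is filled.

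Before treatment the genotypes differed in Dlx1, Dlx2 and Dlx4 as myoblasts, 3 of 8 genes called against 31.3% of all genes, a share near the background. MuSK-null myoblasts had more Dlx1 (9.69 to 9.84 against 9.26 to 9.28, a difference of 0.49 ± 0.07, limma adjusted p = 3.14e-06) and more Dlx2 (9.77 to 10.06 against 9.25 to 9.36, 0.58 ± 0.11, adjusted p = 0.000176). They had less Dlx4 (-0.28 ± 0.09, adjusted p = 0.0249), a call that ended without any of 4 of the 6 arrays, the second and the third wild-type and the first and second MuSK-null (0.0294 to 0.106 over all 6). Msx1 (-0.18 ± 0.08) and Msx2 (-0.15 ± 0.12) were not called. In the same comparison all 6 myotube markers were lower in MuSK-null myoblasts (median -2.50). Of 6 fibroblast markers 4 were called higher and 1 lower, with averages per array of 8.88 to 8.92 against 8.18 to 8.24. Their part in the Dlx differences was not tested.

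In untreated myotubes 3 of 8 genes were called, against 37.4% of all genes, again near the background. Msx2 was higher in MuSK-null myotubes (7.09 to 7.32 against 6.69 to 6.86, 0.38 ± 0.12, limma adjusted p = 0.0179), Dlx3 lower (7.59 to 7.84 against 7.84 to 8.15, -0.27 ± 0.09, adjusted p = 0.0256) and Dlx4 lower (7.10 to 7.24 against 7.27 to 7.67, -0.34 ± 0.09, adjusted p = 0.00603). Dlx1 (0.02 ± 0.07) and Dlx2 (-0.06 ± 0.11) had intervals of -0.12 to 0.16 and -0.29 to 0.16. In this comparison MuSK-null myotubes had more of 4 of the 6 fibroblast markers and less of the other two (9.55 to 9.74 on average per array against 8.57 to 8.74), and 5 of 6 myotube markers were lower (13.15 to 13.18 against 13.44 to 13.50). Their part in the Msx2, Dlx3 and Dlx4 differences was not tested. The Msx2 call ended without the first wild-type array (adjusted p = 0.0798) or the third MuSK-null array (0.0939). The Dlx3 call ended without the first wild-type array (0.189) or the first (0.108) or second (0.092) MuSK-null array.

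Untreated myotubes had less Msx2 and Dlx1 than untreated myoblasts in both lines. Untreated wild-type myotubes differed from myoblasts in 3 of 8 genes, all lower, where 45.0% of all genes were called. These were Msx2 (-0.94 ± 0.12, limma adjusted p = 8.21e-07), Dlx1 (-0.43 ± 0.07, adjusted p = 9.55e-06) and Msx1 (-0.28 ± 0.08, adjusted p = 0.0086). The Msx1 call ended without the third myotube array (0.0587), while Dlx2 at -0.22 ± 0.11 (adjusted p = 0.105) gained one without the 4 arrays that deviated together (0.0433). In MuSK-null cells 4 of 8 genes were lower in myotubes, where 41.6% of all genes were called. They were Dlx1 (-0.91 ± 0.07, adjusted p = 9.70e-11), Dlx2 (-0.86 ± 0.11, adjusted p = 4.86e-07), Msx2 (-0.42 ± 0.12, adjusted p = 0.00818) and Dlx3 (-0.36 ± 0.09, adjusted p = 0.00271). Both shares of the 8 genes are near the background.

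**Figure D4:**
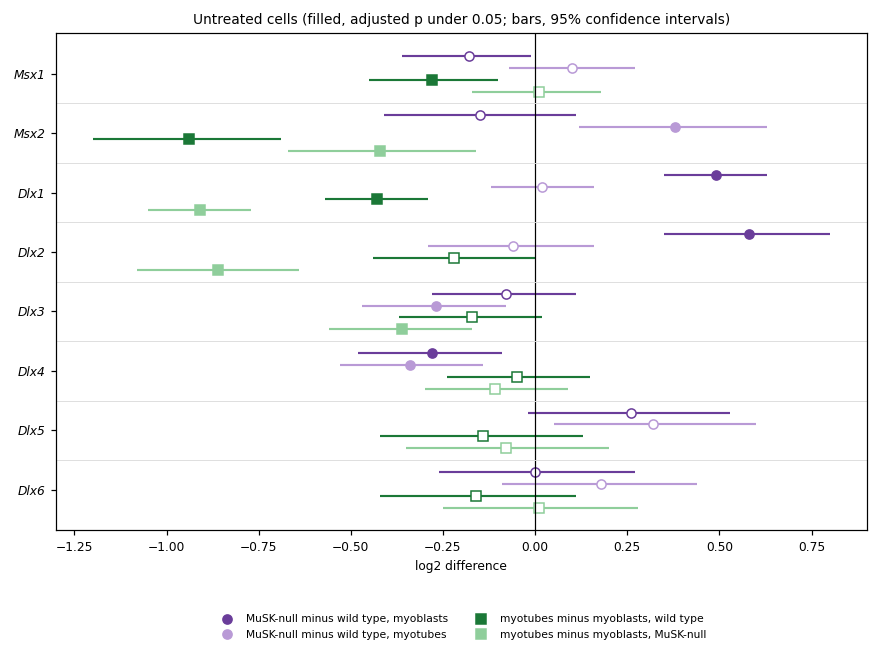
Log2 differences in untreated cells between genotypes (circles) and between stages (squares), as limma estimates with 95% confidence intervals; filled symbols have an adjusted p under 0.05. Dlx1 and Dlx2 lay to the right in MuSK-null myoblasts (0.49 and 0.58) and furthest to the left for the stage difference of MuSK-null cells (-0.91 and -0.86). Msx2 lay furthest to the left for the stage difference of wild-type cells (-0.94).

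Across the 8 groups the order of levels set the genes apart. Msx2 was highest in treated wild-type myoblasts (9.79 ± 0.15, SD, n = 3), then treated MuSK-null myoblasts (8.56 ± 0.34), and lowest in untreated wild-type myotubes (6.80 ± 0.10). Its next groups, at 7.74 ± 0.11, 7.62 ± 0.05 and 7.59 ± 0.07, were untreated wild-type myoblasts, treated MuSK-null myotubes and untreated MuSK-null myoblasts, and neighbours among them overlapped. Dlx2 was highest in the treated myoblasts of both genotypes (11.75 ± 0.24 MuSK-null, 11.75 ± 0.15 wild type) and then in treated wild-type (10.62 ± 0.11) and MuSK-null myotubes (10.34 ± 0.09), with every treated group above every untreated one. Dlx1 was also highest in treated myoblasts (10.88 ± 0.10 MuSK-null, 10.70 ± 0.11 wild type), but its untreated MuSK-null myoblasts (9.77 ± 0.07) overlapped treated wild-type myotubes (9.77 ± 0.10) and lay above treated MuSK-null myotubes (9.57 ± 0.04). Dlx3 had both treated wild-type groups on top (9.12 ± 0.04 in myoblasts, 8.93 ± 0.21 in myotubes), and these overlapped. Dlx5 had its 3 highest groups in treated cells (7.54 ± 0.12, 7.44 ± 0.15 and 7.15 ± 0.26), and treated wild-type myotubes (6.53 ± 0.08) were among the untreated levels. The group means spanned 0.82 units for Dlx4, 0.80 for Msx1 and 0.27 for Dlx6.

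Likeness of pattern was described by Pearson's correlation of the 8 group means, among 4047 genes whose group means spanned at least 1 log2 unit. The groups share lines, stages and treatment, so these values carry no test. Dlx1 was closest to Hoxc11 (0.993), Nfkbia (0.984), Myo1d (0.976), Dlx2 (0.970) and Snai2 (0.967). Dlx2 was closest to Hoxc11 (0.972), Dlx1 (0.970), Unc5b (0.969), Smad6 (0.959) and Bambi (0.959). Msx2 was closest to Kazald1 (0.956), Itgb8 (0.954), Mpp2 (0.942), Ndnf (0.940) and Sptssa (0.934). Dlx3 stood nearest to Fzd1 (0.961), Rgs4 (0.946), Insc (0.943), Sp7 (0.942) and Fzd5 (0.930), and Dlx5 to Tmem45a (0.945), Unc5b (0.936), Dok4 (0.923), Dlx1as (0.917) and Smad6 (0.915). Between members the values ran from 0.57 for Dlx3 with Dlx5 to 0.970 for Dlx1 with Dlx2, the most similar patterns of the 5 genes compared. Dlx1 with Dlx2 was the only linked pair among them, since Dlx4 and Dlx6 spanned less than 1 log2 unit. Whether linked genes are more alike was not tested.

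Dlx1as, a transcript antisense to Dlx1, had its own probe set. Its readings went from 6.84, 7.08 and 6.52 to 7.68, 7.70 and 7.97 in wild-type myoblasts (0.97, limma adjusted p = 7.75e-06) and from 6.56, 6.88 and 6.63 to 7.38, 7.69 and 7.45 in MuSK-null myotubes (0.82, adjusted p = 7.47e-05). In MuSK-null myoblasts (0.34, adjusted p = 0.134) and wild-type myotubes (0.30, adjusted p = 0.193) it was not called. The strand specificity of the probe sets was not tested, so its signal is uncertain where Dlx1 is bright.

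Other genes of the BMP pathway set the scale for these changes. Among targets of BMP and Smad signalling 36 genes were measured, of which 23 rose and 1 fell in wild-type myoblasts, 24 rose in MuSK-null myoblasts, 22 rose and 2 fell in wild-type myotubes and 25 rose and 1 fell in MuSK-null myotubes. Of all genes, 11.0%, 8.42%, 8.77% and 11.3% were called in these settings. The list was drawn up with results of these data known, and its medians were 0.59, 0.54, 0.49 and 0.54, against -0.01 to 0.02 over all genes. Id1, an inhibitor of myogenic helix-loop-helix factors, rose by 2.44, 0.99, 2.05 and 2.19 log2 units in these settings. Smad6, an inhibitory Smad, rose by 2.29, 1.99, 1.78 and 1.99. For the genotype difference of myoblast responses, 4 of the 36 were called higher and 9 lower in MuSK-null cells, against 2.39% of all genes. The largest were Rgs4 (-1.88), Id3 (-1.60), Id1 (-1.45) and the BMP antagonist Nog (-1.02). A smaller myoblast response was therefore not particular to the Msx and Dlx genes. A smaller response need not mean a lower treated level. Id1 was higher in MuSK-null myoblasts both untreated (10.56 to 10.71 against 8.62 to 8.71) and after BMP4 (11.59 to 11.66 against 11.06 to 11.15).

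Of 16 BMP receptors, co-receptors and Smads measured, 2 to 3 rose and 3 to 5 fell in each setting. Of all genes, 11.0%, 8.42%, 8.77% and 11.3% were called in these settings in either direction. Smad9, a receptor-activated Smad, rose by 1.54, 1.70, 1.32 and 1.34. Of 16 measured osteoblast genes, 3, 2, 3 and 1 rose, and 1 fell, in wild-type myotubes (Pth1r, -0.37). The counts in MuSK-null cells are near or below the shares of all genes and are no result about osteoblast genes. Sp7, the osteoblast transcription factor that Dlx5 is known to activate, rose by 3.40, 1.74, 3.12 and 0.45. In MuSK-null myotubes Dlx5 changed by 0.62, and in wild-type myotubes by 0.32 without a call. The genotype difference between these Dlx5 responses was not called, and a link between Dlx5 and Sp7 was not tested. The 5 measured osteoblast markers averaged 6.80 before and 7.77 after BMP4 in wild-type myoblasts and 6.27 and 6.26 in MuSK-null myotubes. In wild-type myoblasts 2 of the 5 were called higher and the median change was -0.12, so the higher average was not shared by all markers.

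Of 37 measured genes of the same NK-like class outside these 8, 3 rose in wild-type myoblasts, 2 in MuSK-null myoblasts, 4 in wild-type myotubes and none in MuSK-null myotubes by limma. In the same settings 11.0%, 8.42%, 8.77% and 11.3% of all genes were called, so these counts are near or below the background and are no result about the class. In MuSK-null myotubes 1 of the 37 had an unadjusted p under 0.05. The largest were Emx2, a forebrain and urogenital factor, at 1.05 in wild-type myotubes and 0.55 in wild-type myoblasts, and Hlx at 0.52 in wild-type myoblasts. Among 11 measured partners of Msx and Dlx proteins, 5 rose and 1 fell in wild-type myoblasts, among them the co-repressors Tle4 (0.49), Tle1 (0.32) and Tle2 (0.32) and the muscle progenitor factor Pax3 (0.53). In MuSK-null myoblasts Tle1 alone rose (0.32), a count near the background. The genotype difference was called for Tle4 (-0.67) and Pax3 (-0.42), against 2.39% of all genes.

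Of 17 measured myogenic regulators, 5 rose and 6 fell in wild-type myoblasts, and 6 fell in MuSK-null myoblasts, all the calls there. Myf5, a determination factor, rose by 0.97 in wild-type myoblasts, the setting with the largest rises of Msx1 and Msx2, and by 0.68 and 0.71 in wild-type and MuSK-null myotubes. Myod1, the determination factor that Msx1 is known to repress, fell by 0.21 in wild-type myoblasts and by 0.59 in MuSK-null myoblasts. Msx1 changed by 0.52 and 0.02 in these 2 settings, and a link between Msx1 and Myod1 was not tested. Myog, a further myogenic factor, fell by 0.44 and 0.67. The Myod1 change of 0.10 in wild-type myotubes was not called, and in MuSK-null myotubes Myod1 rose by 0.25.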

How the data were processed

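Total RNA of 24 samples was hybridised to Affymetrix whole-transcript gene arrays, per the labels' protocols. The authors deposited 1 table of log2 values, 35556 probe sets by 24 arrays, made with Affymetrix Expression Console and Partek, per the submitters' processing notes. Background correction, summarisation, normalization and software versions are steps not given in the sources used here, and no other normalization was applied in the main analysis. Log2 array values compress low signals, and levels of different probe sets were not compared. Probe sets were named through the platform annotation: 21789 listed 1 gene, 1621 several and 12146 none. The highest mean over all arrays was kept for each of 19938 genes.

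limma 3.58.1 in R 4.3.3 fitted 1 mean per group over all arrays (16 residual degrees of freedom), with 13 contrasts, Benjamini-Hochberg adjustment over all genes and a threshold of 0.05. The steps were tested on simulated data. The 8 genes were named in every comparison whatever their values. Of the other lists, up to 4 called genes per list and comparison were named by size of change, with Id1, Smad6 and Sp7 always. Members and lists were chosen with earlier results of these data known. Alternatives were quantile normalization, median centring, a filter on dim genes, every one-gene probe set, the compared groups alone, a replicate block, leaving out each array and, chosen after seeing the data, the 4 myoblast arrays that deviated together as a block or left out.

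Same-numbered arrays deviated together in 3 pairs of myoblast groups (untreated wild type with untreated MuSK-null, 0.22 to 0.42; untreated wild type with treated MuSK-null, 0.21 to 0.51; untreated with treated MuSK-null, 0.12 to 0.46), all above the limit of 0.1. The second arrays of these 3 groups all belong to the 4 arrays that deviated together, so these correlations cannot show a pairing apart from that set. No label ties same-numbered arrays together. The main fit used no pairing, and the numbers entered only as the replicate block. Promoter windows came from RefSeq on GRCm38.p6.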

Additional observations from a re-analysis of the deposited data

Results flagged for a closer look

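In 11 instances a gene's BMP4 response differed between groups by a limma interaction test with a Benjamini-Hochberg adjusted p under 0.05. Between genotypes in myoblasts, the MuSK-null response was the smaller one, with differences of -0.50 log2 units for Msx1, -1.08 for Msx2, -0.57 for Dlx2 and -0.63 for Dlx3. Between stages in wild-type cells, the myotube response was the smaller one, with differences of -1.90 for Msx2, -0.50 for Dlx1, -0.90 for Dlx2 and -0.87 for Dlx5. Between stages in MuSK-null cells the differences were -0.41 for Dlx1 and -0.55 for Dlx2. The genotype difference of Msx2 responses was 1.37 higher in myotubes than in myoblasts. In the order given, 2.39%, 3.42%, 6.16% and 2.50% of all genes were called in these comparisons, which share arrays and are not independent. The myoblast calls of Msx1, Dlx2 and Dlx3 ended without the 4 arrays that deviated together. Leaving out single arrays also ended the Msx1 call and both genotype and MuSK-null stage calls of Dlx2. Outlying arrays were not tested for, since every group has 3.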

How the results depend on the processing

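Of 104 results (8 genes in 13 comparisons), 44 were called, and 34 of these kept the call under every alternative run. Of the uncalled ones, 53 stayed so, and no called direction reversed. Leaving out 1 array gave 1 to 4 genes called for untreated myotubes by genotype (3 with all arrays), 2 to 5 for the genotype difference of myoblast responses (4) and 1 to 3 for the stage difference of MuSK-null responses (2). The genotype difference of myoblast responses had 1 gene called without the array set and 5 with it as a block. The stage difference of MuSK-null responses had 1 with the compared groups alone and 1 with median centring. With the replicate block, 2 of 104 results changed their call. The Dlx4 response of wild-type myotubes (0.27, limma adjusted p = 0.047) gained it. The genotype difference of Dlx2 responses in myoblasts (-0.57, adjusted p = 0.0678) lost it. No call changed in the MuSK-null myoblast response or the untreated myoblast comparison. The Dlx2 difference was also not called with the compared groups alone (adjusted p = 0.14) or with every one-gene probe set (0.0504).

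Over all genes, the compared groups alone called 1115 genes in the MuSK-null myoblast response (1678 in the main analysis). The array set as a block called 745 (477) for the genotype difference of myoblast responses, 1028 (682) for the stage difference in wild-type cells and 783 (498) for the three-way term. Median centring moved the share of calls that were higher from 46.2% to 33.9%, 48.8% to 36.7%, 52.5% to 64.4% and 47.4% to 59.4% in the MuSK-null myoblast response, its difference from wild type, the stage difference of MuSK-null responses and the three-way term. The causes were not tested. With 3 arrays per group and 1 line per genotype, precision is limited by their number. Signals near the dim reference (Dlx5 untreated, Dlx6, Msx2 in wild-type myotubes) may hide changes.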
